A study of Mus musculus with 4 samples.

Results

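10 genes that mark mouse primordial germ cells were followed through single cells of the embryonic gonad and the adjoining mesonephros. They are Pou5f1, Nanog, Sox2, Dppa3, Dppa5a, Dazl, Ddx4, Tfap2c, Prdm1 and Sycp3, and they were taken by name, as 10 of the 21495 genes of the deposited count table. Each was read as unique molecular identifiers (UMIs, one per captured transcript), summed over the cells of each deposited cell type in each sample and expressed as CPM, counts per 1000000 UMIs of all genes. The germ cells are the cells that the deposited annotation calls PGCs, 957 of 52745.

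Primordial germ cells are the embryonic precursors of sperm and eggs. They are set aside early by the transcription factors Prdm1 and Tfap2c, keep a pluripotency network of Pou5f1, Nanog and Sox2 while they migrate, and on arrival in the gonad start RNA-binding factors such as Dazl and Ddx4 that prepare them for sexual differentiation. In an ovary they then enter meiosis, for which the axis protein Sycp3 is built, whereas in a testis they enter mitotic arrest.

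The 4 groups, of 1 sample each, were an XY control, an XY knockout (KO) and an XX control taken at E11.5, and a later XY KO taken at E11.75. The KO lacks both copies of the miR-17-92 microRNA cluster, cut out by CRISPR in the XY embryonic stem cell line G4 (a C57BL/6J-129 F1 hybrid), and its embryos were made by tetraploid complementation, so that every KO embryo descends from edited cells of that line. XY control embryos were made in the same way from the unedited line, while XX control embryos came from natural crosses of the parental strains. The labels give the strain of every sample as C57BL/6 x 129S4/SvJae, and each sample pooled several pairs of gonads with mesonephros. Since each group has 1 sample, no test between groups was possible, and no p-value is given. The intervals below are 95% intervals of counting error only, exact Poisson for CPM, exact binomial for ratios and Clopper-Pearson for shares of cells, and they leave out the spread between embryos.

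Germ cells numbered 556 in the XY control, 165 in the XY KO at E11.5, 152 in the XY KO at E11.75, and 84 in the XX sample, and held between 1557963 and 6979059 UMIs in all. The median germ cell held 11990.5, 12156, 9279.5 and 40644 UMIs in these samples. The median share of mitochondrial UMIs per germ cell was 3.87%, 4.31%, 5.99% and 3.16%. XX cells were not limited in UMIs by the study, and 64 of the 84 XX germ cells had at least 30000 UMIs, a depth that no XY germ cell reached. Sex, breeding, depth and filtering therefore differ together between the XX and XY controls and cannot be told apart. Any pair of libraries shared between 1 and 40 cell barcodes, at most 0.687% of the smaller library. Transcripts of the host gene of the deleted cluster, Mir17hg, were counted at 36.7 and 37.4 CPM in germ cells of the XY and XX controls and at 110.0 and 144 CPM in those of the KO at E11.5 and E11.75. The summed counts do not give where in the host gene the reads lie, so this level does not check the deletion of the microRNAs.

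10 other germ cell markers were read in the labelled cells. The cells had been named with such genes, so this describes the label and tests nothing. In germ cells 7, 7, 8 and 7 of them were at least 8-fold higher than in all other cells of the XY control, the KO at E11.5, the KO at E11.75 and the XX control. The same held for 2.19%, 1.77%, 1.34% and 1.75% of all genes. Kit and Nanos3 stayed near that line, at 5.03- to 8.05-fold and 5.97- to 6.94-fold, and Taf7l was lower in germ cells, at 0.139- to 0.156-fold. Markers of other cells were counted as well. The 7 gonadal somatic markers summed to 46.0, 49.9, 81.5 and 49.0 CPM in germ cells, against 1724 to 2348 CPM in bipotential progenitors. The 8 mesenchyme markers summed to 124, 162, 186 and 88.3 CPM against 2492 to 6456 CPM, with all 8 above 0 in each sample. Of 7 macrophage markers 6, 4, 1 and 5 were above 0, and they summed to 10.7, 9.78, 1.93 and 10.5 CPM, with Tyrobp the highest, against 1298 to 5898 CPM in immune cells, with the defining gene Ptprc at 0 in all 4 samples. The 8 erythroid markers summed to 988, 488, 797 and 392 CPM, mostly the embryonic globin Hbb-y. Endothelial markers summed to 114, 142, 172 and 68.4 CPM with all 6 above 0, mostly Pecam1, against 2479 to 3940 CPM in endothelium. Nephric markers summed to 64.0, 48.9, 97.6 and 44.9 CPM, mostly Lhx1, against 555, 417, 721 and 366 CPM in their own type. Adrenal markers summed to at most 4.40 CPM. Of the neural crest markers Erbb3 was the highest, at 21.5, 20.5, 18.6 and 9.41 CPM, and Sox10 and Foxd3 were at 0 in the KO at E11.75 and the XX control. The part of these other transcripts in the results below was not tested.

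The deleted cluster makes 6 microRNAs, and their seeds (bases 2 to 8, in capitals, the part that pairs with a target) fall into 4 groups. They are shown because they define which stretches of the 10 genes the cluster could pair with. All lie on the plus strand of chromosome 14, from chr14:115043684-115043706 for miR-17-5p to chr14:115044476-115044496 for miR-92a-3p in GRCm38 (mature sequences from RefSeq). The first pair shares the seed AAAGUGC, miR-18a-5p differs from it in its own group, the miR-19 pair shares GUGCAAA, and miR-92a-3p stands alone.
miR-17-5p: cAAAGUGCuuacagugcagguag
miR-20a-5p: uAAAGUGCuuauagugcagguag
miR-18a-5p: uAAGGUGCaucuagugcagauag
miR-19a-3p: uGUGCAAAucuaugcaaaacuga
miR-19b-3p: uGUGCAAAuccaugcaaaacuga
miR-92a-3p: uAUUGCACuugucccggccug

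The longest 3′ untranslated region of each gene in GENCODE M21 was searched for 7-base seed matches, which end opposite base 8 of the microRNA (7mer-m8) or in an A opposite base 1 (7mer-A1), and for 8-base matches that have both. Of the 10 genes, 3 held 1 match each, and none held an 8-base match or any match to miR-17-5p and miR-20a-5p. Over all annotated genes with such a region, 43.3% held at least 1 match. The matched bases are in capitals, with the neighbouring reference sequence in lower case, and a match is a description of letters, not a shown target site.
Nanog, miR-92a-3p, 7mer-A1, chr6:122714376-122714405, plus strand: tagctcagataTGCAATAagttcaaggcca
Dazl, miR-18a-5p, 7mer-m8, chr17:50279962-50279991, minus strand: gcactggaacaGCACCTTgctacctaaaac
Prdm1, miR-19a-3p and miR-19b-3p, 7mer-A1, chr10:44438634-44438663, minus strand: taatatcaaaaTTGCACAaagctggtgccc
These regions were 1078, 1854 and 2490 bases long, against a median of 1068 over all genes. Pou5f1, Dppa3 and Dppa5a have short ones of 221, 267 and 184 bases.

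All 10 genes marked the germ cells in every sample. Each was at least 8-fold higher in germ cells than in all other cells of the same sample, and this held for 10 of 10 genes in each of the 4 samples, beside 2.19% of all genes in the XY control, 1.77% in the KO at E11.5, 1.34% in the KO at E11.75, and 1.75% in the XX sample. The cells had been clustered and named with such genes, so these counts describe the annotation and test nothing.

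**Figure D1:**
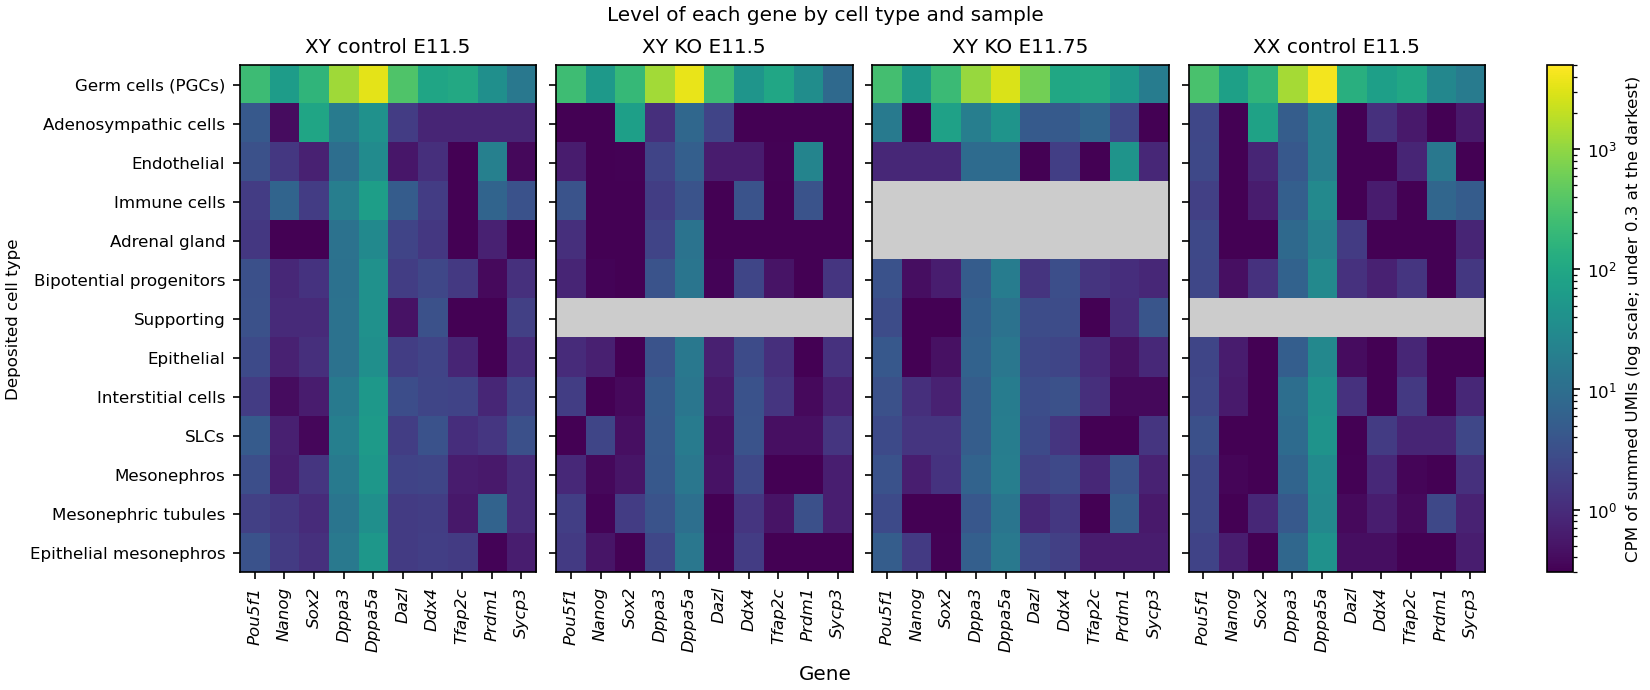
Heat map of CPM (colour, log scale) of the 10 genes (columns) in each deposited cell type (rows) of the 4 samples (panels), with types under 50 cells in grey. The germ cell row is the brightest for every gene, Dppa3 and Dppa5a show a dimmer band in other types, and Sox2 in adenosympathic cells (72.4 to 90.4 CPM) and Prdm1 in endothelium (15.0 to 46.5 CPM) stand out from the other somatic types.

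The ratio of germ cells to other cells differed in size between genes. Dazl, an RNA-binding protein that lets germ cells begin sexual differentiation, was 186-, 511-, 306- and 297-fold higher in germ cells in the XY control, KO at E11.5, KO at E11.75 and XX control. Pou5f1, the core pluripotency factor also called Oct4, was 77.1-, 227-, 74.7- and 126-fold higher. Sycp3 was 13.3-, 11.695-, 21.1- and 15.8-fold higher. In the KO at E11.5 this rested on 17 germ cell UMIs, at a log2 ratio of 3.55 [2.65 to 4.31]. That interval reached under the 8-fold line, a log2 ratio of 3. Prdm1, the repressor that silences the somatic programme in germ cell precursors, was 16.8-, 26.5-, 15.4- and 22.9-fold higher. Germ cells held 38.0% to 56.3% of all Prdm1 UMIs and 20.99% to 48.6% of all Sycp3 UMIs, but 92.3% to 94.4% of all Dazl UMIs. For Ddx4 they held 74.6%, 32.7%, 63.1% and 85.7%, in the KO at E11.5 below the 38.0% of Prdm1. The order of Ddx4 and Prdm1 in that sample differed between its runs. In run 1 the level of other cells was 4.54% of the germ cell level for Ddx4 and 4.94% for Prdm1. In run 2 these values were 4.99% and 2.92%.

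Sox2 had a second site of expression. Adenosympathic cells, as the annotation calls them, held 90.4 CPM of Sox2 [78.8 to 103] in the XY control, 72.4 [55.9 to 92.2] in the KO at E11.5, 79.1 [54.4 to 111] in the KO at E11.75, and 81.7 [68.7 to 96.4] in XX control cells. These 4 intervals overlap. In every other somatic type of at least 50 cells Sox2 stayed at or below 1.72 CPM. Sox2 is known from neural crest and glial precursors as well as from germ cells. In the KO at E11.75 these counts came from 68 cells, of which 1 cell of 16059 UMIs held 8 of the 10 genes at once, and without it the Sox2 level there was 64.8 CPM and the Pou5f1 level went from 16.8 to 7.48 CPM.

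Prdm1 was also found in blood vessels. Endothelial cells held 20.4 CPM of Prdm1 [16.8 to 24.6] in the XY control, 24.0 [18.9 to 29.995] in the KO at E11.5, 46.5 [34.7 to 61.0] in the KO at E11.75, and 15.0 [10.5 to 20.6] in XX control cells. The KO at E11.75 stood above the other 3 samples there, as it did in germ cells. In the mesonephros, the type with most cells, Prdm1 was at 0.585, 0.253, 3.66 and 0.209 CPM, and the KO at E11.75 [2.74 to 4.79] was again highest, from 53 UMIs. Mesonephric tubules were at 6.51, 3.16, 5.32 and 2.44 CPM. Immune cells were at 6.88, 3.55 and 7.50 CPM in the XY control, the KO at E11.5 and the XX control, from 4, 2 and 12 UMIs, and had fewer than 50 cells in the KO at E11.75.

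Ddx4, the RNA helicase also called Vasa and a classical germ cell marker, was counted outside germ cells at a level that did not follow that of Dazl. Its level in all other cells was 2.17 CPM [1.89 to 2.48] in the XY control, 2.31 [2.01 to 2.65] in the KO at E11.5, 2.45 [1.97 to 3.02] in the KO at E11.75, and 0.684 [0.497 to 0.918] in XX control cells. The intervals of the XY samples overlapped and the XX sample was lower. Germ cells were 2.36%, 0.967%, 1.79% and 2.29% of all cells in these samples, and the part of their transcripts in the counts of other cells was not tested. Dazl was at 1.85, 0.476, 2.01 and 0.466 CPM in the other cells of these samples, and Dppa5a at 46.3, 13.4, 17.1 and 31.0 CPM.

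Set against its own germ cell level, the Ddx4 level of other cells was 2.42% in the XY control, 4.78% in the KO at E11.5, 2.51% in the KO at E11.75, and 0.936% in XX control cells. For Dazl the same share was 0.537%, 0.194%, 0.324% and 0.332%, and for Pou5f1 1.30%, 0.439%, 1.33% and 0.789%. The share of Ddx4 was thus above those of Dazl and Pou5f1 in every sample. Both sequencing runs of the KO at E11.5 gave the same picture for Ddx4, at 4.54% and 4.99%. Over the somatic types of the KO at E11.5 Ddx4 was at 0 CPM in adrenal and adenosympathic cells, with intervals that reach up to 4.05 and 4.11 CPM. It was at 3.63 CPM [1.57 to 7.15] in SLCs, a type that the annotation gives by this abbreviation. In the mesonephros, the type with most cells, it was at 2.48 CPM [2.04 to 2.998]. These intervals overlap.

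**Figure D2:**
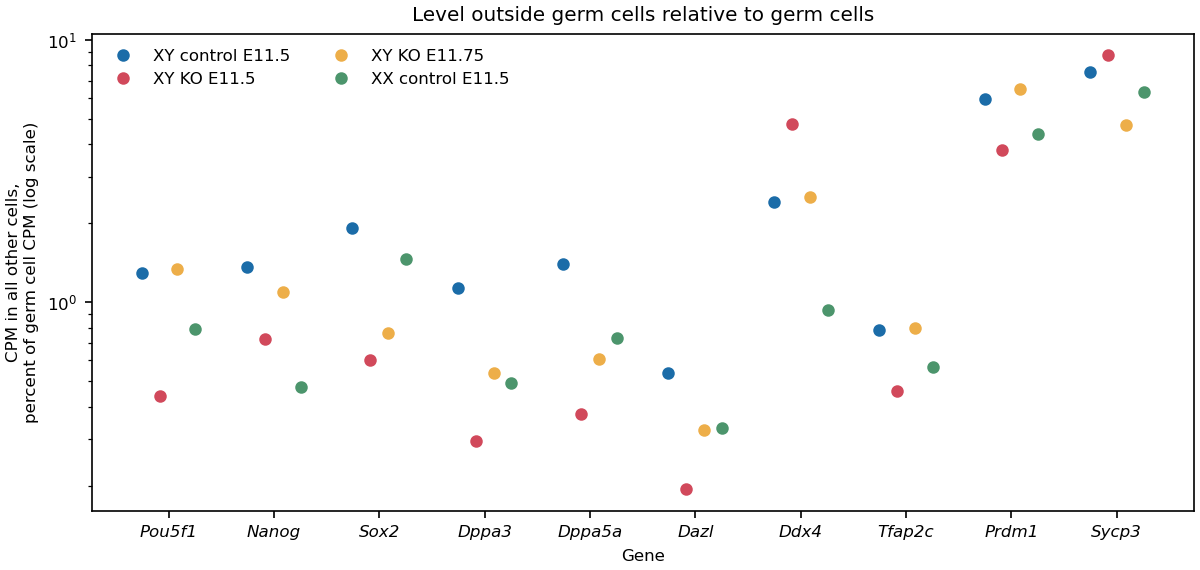
Level of each gene in all other cells as a percentage of its level in germ cells (log axis), 1 point per sample. Ddx4 lies at 2.42% to 4.78% in the XY samples and Dazl at 0.194% to 0.537%. Prdm1 and Sycp3 lie above Dazl in every sample.

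In germ cells the 3 pluripotency factors were present in all samples at levels close to each other. UMIs were taken from 3′ ends, so levels are compared between samples and not between genes. Pou5f1 was counted at 232 CPM [221 to 243] in the XY control, 245 [224 to 268] in the KO at E11.5, 277 [251 to 304] in the KO at E11.75, and 305 [288 to 324] in XX control cells. The XX control was highest and its interval lay above those of the XY control and the KO at E11.5. The XY control itself was split, since its first sequencing run gave 192 CPM and its second 288 CPM, a log2 difference of 0.58 [0.44 to 0.73]. At least 2-fold, a size that Pou5f1 did not reach, was the difference of 20 of 8477 genes, 0.236%, between these runs. Pou5f1 lies at chr17:35506018-35510772 (GRCm38, plus strand), where the annotation also has the antisense gene Gm19553.

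Nanog, a homeobox factor that stabilises pluripotency, was counted at 65.1 CPM [59.2 to 71.3] in the XY control, 58.2 [48.2 to 69.6] in the KO at E11.5, 57.8 [46.5 to 71.0] in the KO at E11.75, and 75.03 [66.4 to 84.5] in XX control cells. The CPM intervals of the XY samples overlapped, while relative to the median gene the KO at E11.75 was lower than the XY control, as given below. Sox2, the partner of Pou5f1 on DNA, was counted at 174 CPM [164 to 184], 203 [184 to 223], 225 [202 to 249] and 174 [161 to 189] in the same order. The KO at E11.75 lay above both controls in Sox2, while the KO at E11.5 and the XX control had overlapping intervals. This is a reading of CPM, and relative to the median gene Sox2 was at 0.15 [−0.02 to 0.32] in the KO at E11.75 over the XY control, an interval that includes that gene. Sox2 lies at chr3:34650405-34652461 on the plus strand inside the non-coding gene Sox2ot of the same strand, so that reads of the pair may not be told apart. Nanog lies at chr6:122707489-122714633 on the plus strand.

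Dppa3 and Dppa5a gave the highest UMI totals and so the narrowest intervals. Dppa3, also called Stella, protects the maternal genome's methylation in the egg and marks germ cell precursors. It was counted at 1266 CPM [1240 to 1293] in the XY control, 1304 [1255 to 1354] in the KO at E11.5, 1134 [1081 to 1188] in the KO at E11.75, and 1343 [1305 to 1381] in XX control cells. The KO at E11.75 was the lowest sample and its interval met none of the others. Dppa5a, a small RNA-binding protein of pluripotent cells, followed the same order, at 3319 CPM [3277 to 3362], 3592 [3510 to 3675], 2831 [2748 to 2915] and 4231 [4164 to 4299]. Here all 4 intervals stood apart. Dppa3 lies at chr6:122626410-122630272 on the plus strand and Dppa5a at chr9:78367052-78368177 on the minus strand. Both have processed copies or near relatives in the annotation (Dppa3-ps, Dppa5b and Dppa5c), as Nanog has (Nanog-ps1 and Nanog-ps2). Reads that such copies share with the genes may not be told apart.

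Of the specification factors, Tfap2c differed less between samples than Prdm1. Tfap2c, a factor that acts with Prdm1 when germ cells are set aside, was counted at 104 CPM [96.9 to 112], 96.3 [83.3 to 111], 111 [95.1 to 129] and 98.6 [88.6 to 109] in the XY control, KO at E11.5, KO at E11.75 and XX control, and all 4 intervals overlap. In the 11, 14 and 5 germ cells of the KO at E11.5, the KO at E11.75 and the XX control without a UMI of 6 somatic genes (Wt1, Gata4, Pdgfra, Col1a2, Col3a1 and Pecam1), against 83 of the XY control, its log2 ratio relative to the median gene was 0.61, −0.92 and −0.62. The 6 genes were counted without thinning, so deeper cells were more easily left out. Pecam1, 1 of the 6, was itself at 105, 133, 157 and 63.4 CPM over all germ cells of the 4 samples. Whether this subset holds fewer somatic transcripts was not tested. Prdm1 was counted at 37.4 CPM [33.0 to 42.2], 34.7 [27.1 to 43.8], 57.1 [45.9 to 70.3] and 27.4 [22.3 to 33.4]. The KO at E11.75 was again above the others. Tfap2c lies at chr2:172549593-172558622 on the plus strand and Prdm1 at chr10:44437177-44528501 on the minus strand.

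Among the genes of the later germ cell programme Dazl spread most widely between samples. It was counted at 345 CPM [332 to 359] in the XY control, 246 [225 to 268] in the KO at E11.5, 620.0 [582 to 660] in the KO at E11.75, and 141 [129 to 153] in XX control cells. No interval overlapped another, and the order from low to high was XX control, KO at E11.5, XY control, KO at E11.75. Ddx4 was counted at 89.6 CPM [82.7 to 96.9], 48.4 [39.3 to 58.9], 97.6 [82.7 to 114] and 73.1 [64.5 to 82.5]. The KO at E11.5 was lowest and stood apart from the rest, and the XY control and the KO at E11.75 were not distinguishable.

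Sycp3, a protein of the axis on which meiotic chromosomes pair, was counted at 14.8 CPM [12.0 to 17.9], 8.31 [4.84 to 13.3], 18.0 [11.9 to 26.0] and 16.9 [12.9 to 21.7], from 103, 17, 28 and 61 UMIs. The KO at E11.5 was lowest, with an interval that overlapped that of each other sample. Dazl lies at chr17:50279395-50293636 and Ddx4 at chr13:112598333-112652475, both on the minus strand. Sycp3 lies at chr10:88459569-88473236 on the plus strand and overlaps Chpt1 on the other strand.

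**Figure D3:**
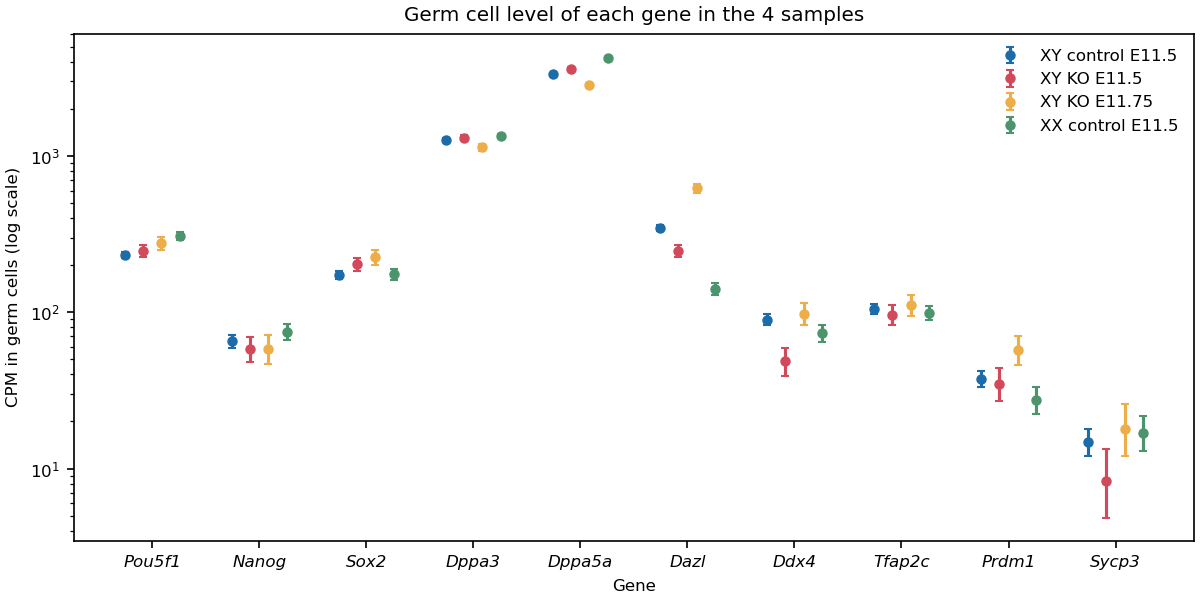
CPM of each gene in germ cells (log axis), with 1 point per sample and exact 95% Poisson intervals as bars. Dazl runs from 141 CPM in the XX control to 620.0 CPM in the KO at E11.75, while the Tfap2c intervals overlap in all samples.

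For comparisons between samples, each gene's log2 ratio was read relative to the median ratio of all genes with at least 50 UMIs over the pair of samples, and a gene was called past 2-fold when it lay at least 1 log2 unit from that median. 3 of the 4 comparisons use the XY control as reference, and all 4 reuse samples, so they are not independent of each other.

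In the XY KO over the XY control at E11.5 the labels differ in the deletion, with 1 pooled sample on each side. The limit on globin reads per cell also differed between them. Erythroid markers summed to 488 CPM in KO and 988 CPM in control germ cells, and germ cells were 0.967% and 2.36% of all cells. The part of these differences in the ratios was not tested. None of the 10 genes was past 2-fold, beside 0.628% of all 9079 genes higher and 0.529% lower. Ddx4 was lowest, at a log2 ratio of −0.88 [−1.20 to −0.58], followed by Sycp3 at −0.79 [−1.66 to −0.08] and Dazl at −0.48 [−0.63 to −0.35]. Sox2 was higher at 0.23 [0.06 to 0.39] and Dppa5a at 0.12 [0.08 to 0.16]. The other 5 genes had intervals that included the median gene. The median of the 10 genes was −0.10, and 4 of them lay above the median of all genes.

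Within the runs of the KO, Ddx4 was at 48.0 and 48.9 CPM and Dazl at 268 and 220 CPM, each below both runs of the XY control, at 91.1 and 87.4 CPM for Ddx4 and at 356 and 330 CPM for Dazl. Runs are repeat libraries of a sample and do not replace replicates. Pou5f1 went from −0.22 to 0.58 over the alternative settings. When only germ cells without a UMI of 6 somatic genes were kept, 11 KO and 83 control cells remained, and the direction turned to 0.24 for Dazl and 0.50 for Ddx4. Pecam1, 1 of these 6, was at 133 CPM in all KO germ cells and 105 CPM in all control germ cells. It made up most of the 142 and 114 CPM of the endothelial markers there, so germ cells may have been left out for Pecam1 alone. Whether the subset holds fewer somatic transcripts was not tested.

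In the KO at E11.75 over the XY control at E11.5, stage and deletion are not separated. None of the 10 genes was past 2-fold, beside 1.59% of all 9045 genes higher and 1.74% lower, and the median gene stood at 0.22. Dazl was highest at 0.63 [0.52 to 0.73], followed by Prdm1 at 0.40 [0.03 to 0.74]. Dppa5a was lowest at −0.45 [−0.50 to −0.40], with Nanog at −0.38 [−0.73 to −0.06] and Dppa3 at −0.38 [−0.45 to −0.31]. The remaining 5 genes had intervals that included the median gene. Without germ cells holding a UMI of the 6 somatic genes (14 KO and 83 control cells), Dazl was past 2-fold at 1.07 and the direction of Nanog turned, to 0.60.

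Between the KO samples, E11.75 over E11.5, the labels differ in stage, and the samples also in runs (1 against 2), median UMIs per germ cell (9279.5 against 12156) and median mitochondrial share (5.99% against 4.31%). Limits on mitochondrial and globin reads per cell also differed between them. 1 of the 9 genes with enough UMIs was past 2-fold, Dazl at 1.14 [0.99 to 1.30], beside 1.21% of all 7171 genes higher and 1.1% lower. Ddx4 was next at 0.82 [0.45 to 1.20] and Prdm1 was at 0.53 [0.06 to 0.9996]. Dppa3 was lower at −0.39 [−0.48 to −0.31] and Dppa5a at −0.53 [−0.59 to −0.48]. Sycp3 fell under the minimum with 45 UMIs in all. The gonadal somatic markers summed to 49.9 CPM in germ cells of the KO at E11.5 and to 81.5 CPM at E11.75, and the part of these differences in the ratios was not tested. In cells without the 6 somatic genes Dazl was at 1.03, from 14 and 11 cells.

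In the XX control over the XY control at E11.5, Dazl was past 2-fold and lower, at −1.17 [−1.31 to −1.03], and the other 9 genes were not past it, beside 0.92% of all 9348 genes higher and 0.909% lower. Pou5f1 was higher at 0.52 [0.41 to 0.64], Dppa5a at 0.48 [0.45 to 0.51], Nanog at 0.33 [0.11 to 0.55] and Dppa3 at 0.21 [0.16 to 0.26]. Sox2 was at 0.13 with an interval that reached the median gene. Over the alternative settings Nanog ran from −0.33 to 0.42 and Sox2 from −0.43 to 0.26, both lowest in the 5 XX germ cells without a UMI of the 6 somatic genes, and Pou5f1 ran from 0.17 to 0.80. In all, 7 of the 10 genes lay above it and their median was 0.17. Both XX runs were low in Dazl, at 135 and 147 CPM. When only the 20 XX germ cells under 30000 UMIs were kept, a limit chosen after the data were seen, Dazl was at −1.56 and Ddx4 at −1.01. In those 5 cells Dazl was at −0.96, within 2-fold, and Ddx4 at −1.20.

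**Figure D4:**
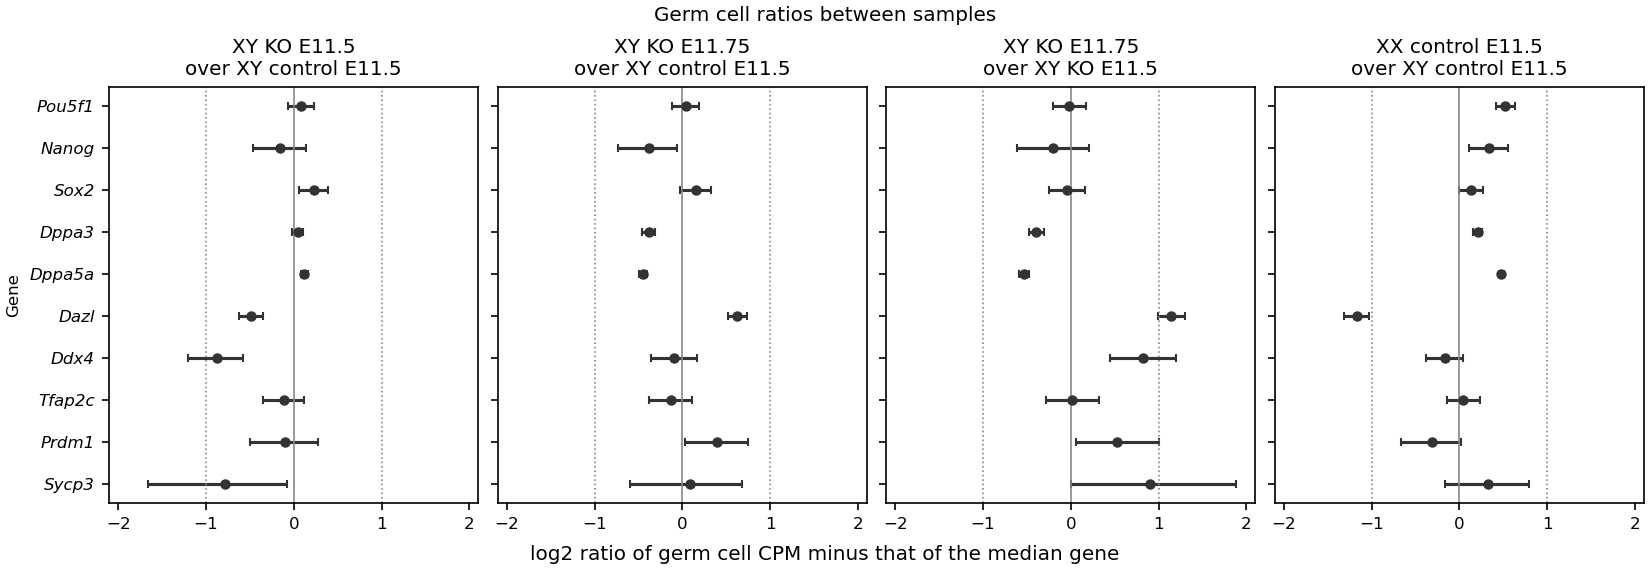
Log2 ratio of each gene in germ cells relative to the median gene in the 4 comparisons (panels), with exact 95% binomial intervals and dotted lines at 1 log2 unit. Sycp3 in the third panel is below the minimum of 50 UMIs. Dazl lies past the lines in the KO at E11.75 over the KO at E11.5 (1.14) and in the XX over the XY control (−1.17).

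Dazl differed between samples in how many germ cells held it as well as in its sum. Each germ cell was thinned to 3000 UMIs, which left out 7 shallower cells of the KO at E11.5 and 1 of the KO at E11.75. A Dazl UMI was then found in 56.7% of germ cells [52.4 to 60.8] of the XY control, 47.5% [39.5 to 55.6] of the KO at E11.5, 77.5% [70.0 to 83.9] of the KO at E11.75 and 36.9% [26.6 to 48.1] of the XX control. The KO at E11.75 stood above all others. The share without thinning was 86.5%, 75.8%, 92.1% and 76.2%. In all other cells, thinned alike, 0.521%, 0.146%, 0.558% and 0.284% held a Dazl UMI.

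Cells with at least 3 Dazl UMIs after thinning were 11.51%, 7.59%, 29.8% and 5.95% of germ cells in the same order. Cells with none were 43.3%, 52.5%, 22.5% and 63.1%. The variance over the mean of the thinned Dazl counts was 1.52, 1.33, 1.64 and 1.54, above the value of 1 that counting alone would give. For Dppa5a it was 1.65 in the XY control and 1.64 in the KO at E11.5, and for Pou5f1 1.05 and 0.996. Ddx4 was found in 21.8% [18.4 to 25.4], 10.8% [6.39 to 16.7], 19.9% [13.8 to 27.1] and 21.4% [13.2 to 31.7] of germ cells, lowest again in the KO at E11.5, and in 57.9%, 39.4%, 55.9% and 78.6% without thinning.

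**Figure D5:**
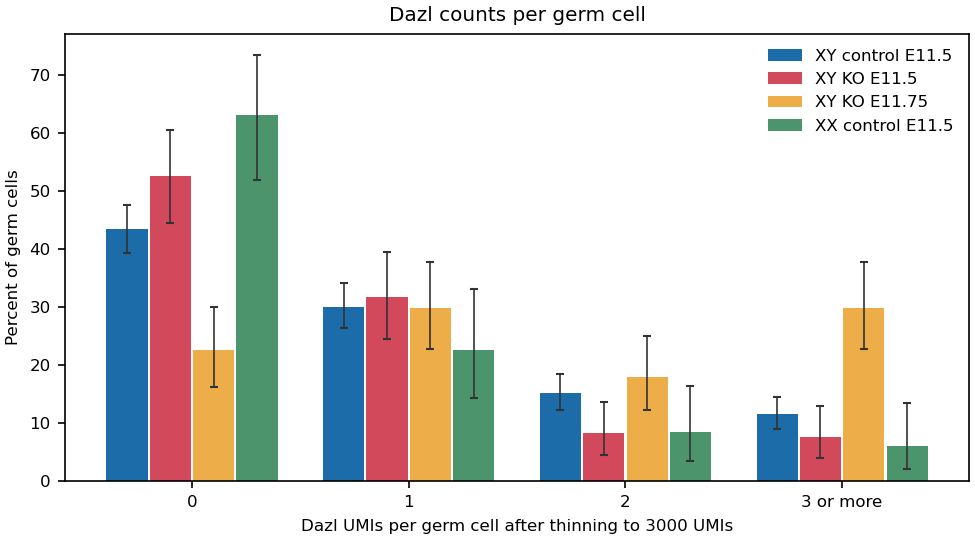
Share of germ cells with 0, 1, 2 and 3 or more Dazl UMIs after thinning each cell to 3000 UMIs, in the 4 samples (bars), with exact 95% Clopper-Pearson intervals. Cells with 3 or more are 29.8% in the KO at E11.75, and 5.95% in XX cells, and cells with 0 are 22.5% and 63.1%.

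Dazl, Ddx4 and Sycp3 belong to a set of germline genes known to be held silent by DNA methylation of CG pairs at their starts until germ cells reach the gonad. RefSeq promoters (250 bases before to 50 after the start, build GRCm38.p6) were found for 7 of the 10 genes. The CG pairs are in capitals below, and these 3 genes are shown because they make up the later programme.
Dazl, chr17:50293571-50293870, minus strand: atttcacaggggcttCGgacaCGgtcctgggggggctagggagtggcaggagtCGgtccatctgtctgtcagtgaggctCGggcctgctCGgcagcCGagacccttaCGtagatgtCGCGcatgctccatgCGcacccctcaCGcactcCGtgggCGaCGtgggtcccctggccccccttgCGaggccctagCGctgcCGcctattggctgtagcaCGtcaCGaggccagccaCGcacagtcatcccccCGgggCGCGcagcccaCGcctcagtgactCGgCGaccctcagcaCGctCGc
Ddx4, chr13:112652261-112652560, minus strand: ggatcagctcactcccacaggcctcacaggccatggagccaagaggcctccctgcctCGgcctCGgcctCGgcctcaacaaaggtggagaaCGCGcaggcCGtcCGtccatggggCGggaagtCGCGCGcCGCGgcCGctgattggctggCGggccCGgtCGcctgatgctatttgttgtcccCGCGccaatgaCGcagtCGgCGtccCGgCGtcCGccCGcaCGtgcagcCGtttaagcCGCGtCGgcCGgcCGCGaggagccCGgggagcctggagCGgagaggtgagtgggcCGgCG
Sycp3, chr10:88459337-88459636, plus strand: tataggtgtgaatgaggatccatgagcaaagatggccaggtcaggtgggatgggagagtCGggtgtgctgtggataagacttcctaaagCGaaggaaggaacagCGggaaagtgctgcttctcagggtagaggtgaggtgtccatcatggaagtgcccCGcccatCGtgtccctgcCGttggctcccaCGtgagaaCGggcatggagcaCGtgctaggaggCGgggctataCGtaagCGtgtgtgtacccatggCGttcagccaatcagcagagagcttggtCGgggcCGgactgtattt
Ddx4 has 38 CG pairs, Dazl 28 and Sycp3 15, against a median of 7 over 32851 promoters, and 95.05%, 85.8% and 65.4% of promoters have fewer. Sox2 with 27 and Prdm1 with 20 are also CG-rich, while the listed Nanog promoters have 4 each and those of Pou5f1 11 and 6. On both strands the E-box CACGTG occurred in 7.15% of all promoters, and Sycp3 held it at 2 positions and Ddx4 at 1. The letters TCCCGC, part of the site of E2F-family factors, occurred in 19.98% of promoters and once each in Ddx4 and Sycp3. Methylation was not measured here.

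Single germ cells mostly held several of the genes, of which Dppa5a and Dppa3 were in nearly every cell. After thinning to 3000 UMIs the median germ cell held UMIs of 4 of the 10 genes in every sample, and at least 3 were found in 95.3% of germ cells [93.2 to 96.9] of the XY control, 94.9% [90.3 to 97.8] of the KO at E11.5, 96.7% [92.4 to 98.9] of the KO at E11.75 and 90.5% [82.1 to 95.8] of the XX control. No germ cell held none. Among other cells at least 3 were found in 5 of 16692, 0 of 15082, 2 of 5916 and 1 of 3518 cells.

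Dppa5a alone was found in 99.8% to 100% of germ cells and Dppa3 in 94.0% to 97.6%. Pou5f1 was found in 52.0%, 53.8%, 55.6% and 51.2%, Sox2 in 42.3%, 44.9%, 39.7% and 36.9%, and Tfap2c in 29.5%, 26.6%, 26.5% and 23.8% of germ cells. These shares were close between samples. Joint detection of Pou5f1 and Sox2 (22.1%, 24.7%, 24.5% and 16.7% of germ cells) stood near the product of their separate shares (22.0%, 24.2%, 22.1% and 18.9%). Dazl was found in 50.5% of XY control germ cells with a Pou5f1 UMI and in 63.3% of those without. The KO samples had the same order, 44.7% and 50.7% at E11.5 and 75% and 80.6% at E11.75. In the XX control the order was the other way, 44.2% and 29.3%, from 43 and 41 cells. Cells of a sample are not replicates, and these shares are given without a test.

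Other germ cell genes were read by list. Of 21 pluripotency genes with enough UMIs, none was past 2-fold in the KO over the control at E11.5, beside 0.628% of all genes higher and 0.529% lower, with a median of −0.02. Utf1, a chromatin factor of pluripotent cells, was at 590.1, 491, 450 and 609 CPM in the XY control, KO at E11.5, KO at E11.75 and XX control, and Tdh, a threonine-metabolising enzyme of mouse stem cells, at 280, 265, 251 and 257 CPM. In the KO at E11.75 over the XY control, beside 1.59% of all genes higher and 1.74% lower, 1 of 22 was higher, Tbx3 at 1.37 [0.47 to 2.22], and 2 were lower, Nr0b1 at −1.47 [−3.08 to −0.38] and Tdgf1 at −1.37 [−2.16 to −0.72]. These 3 genes are named after their values were seen, and Tbx3 and Nr0b1 rest on 50 and 75 UMIs.

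Of 14 genes for specification and survival none was past 2-fold in any of the 4 comparisons, where 0.529% to 1.74% of all genes were in each direction, with medians of 0.05, 0.19, −0.01 and −0.07. Ifitm1, a surface protein of early germ cells, was at 1105, 1212, 759 and 1165 CPM, and was lowest in the KO at E11.75. Ifitm3 followed at 637, 741, 544 and 764 CPM. Dnd1, which protects germ cell transcripts, was at 242, 178, 182 and 217 CPM.

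Of 21 genes of the germ cell programme, 0 were higher and 2 lower in the KO at E11.5 over the control, beside 0.628% and 0.529% of all genes, with a median of −0.29, the lowest of the 4 lists, and 6 of the 21 lay above the median gene. The lower genes were Rhox13, an X-linked homeobox gene, at −1.08 [−1.97 to −0.36], and Tuba3b, a tubulin gene named after its value was seen, at −1.59 [−3.39 to −0.40]. Rhox13 was at 17.1, 7.82, 6.42 and 5.54 CPM in the 4 samples, from 119, 16, 10 and 20 UMIs, and was the lower gene of this list also in the KO at E11.75 (1 of 21, −1.56, beside 1.74% of all genes lower) and in the XX control (1 of 22, −1.47, beside 0.909%) over the XY control. Its neighbours Rhox5, Rhox9 and Rhox6 were within 2-fold in all comparisons, with Rhox5 at 1115, 1049, 858 and 1085 CPM.

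Of 14 meiosis genes none was past 2-fold in either KO over the XY control, beside 0.628% and 1.59% of all genes higher and 0.529% and 1.74% lower, with medians of −0.07 and −0.17. Syce2, of the central element of paired meiotic chromosomes, was at 212, 210, 210 and 248 CPM. The meiotic cohesin genes Smc1b and Stag3 were at 81.5, 87.5, 107 and 70.6 CPM and at 55.6, 67.5, 76.4 and 49.0 CPM. In the XX over the XY control 1 of 14 was lower, Sycp1 at −1.10 [−1.86 to −0.45], a gene named after its value was seen, beside 0.909% of all genes. Between the KO samples no gene of the 4 lists was past 2-fold, beside 1.21% of all genes higher and 1.1% lower, with 20, 14, 17 and 7 genes of the lists tested.

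The genes whose pattern over cell types was most like the mean of the 10 were Tcl1, Gdf3, Dppa4, Rbmxl2, Mov10l1, Gm48170, Tex19.1 and Morc1, each with a Pearson correlation of 0.98 of log2(CPM + 1) over 40 values, from 10 cell types in 4 samples. These points share libraries and depth, and germ cells form the far end of each, so the correlation is a description. Tcl1, a kinase cofactor, was at 111, 105, 101 and 119 CPM in germ cells, and Gdf3, a growth factor, at 47.6, 43.0, 45.6 and 49.3 CPM. Both varied less between samples than Dazl did. Each of the 10 genes is itself part of the mean, so its correlation is not comparable with the values above. Among the 10 genes the correlation ran from 0.98 for Dppa3 to 0.79 for Sox2 and 0.67 for Prdm1, the pair with a somatic site of expression.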

How the data were processed

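Cells came from gonads with mesonephros, dissociated with trypsin, fixed in methanol and sequenced with 10x 3′ v3.1 chemistry. The authors made the deposited counts (UMIs per gene and cell) with Cell Ranger 6.1.1 on mm10, filtered and annotated cells in Seurat, and removed doublets with DoubletFinder. XY cells were limited in UMIs and genes, and XX cells were cleared of low-quality clusters, so depth differs between them. The percentage of mitochondrial UMIs per cell is the authors' own value, as deposited. Here UMIs were summed per sample and deposited cell type, over both runs where a sample had 2, and divided by the total over all genes. Ratios used a prior count of 0.5 and were read where the pair of samples held 50 UMIs or more. Each group held 1 sample, so no test was run. Cells were thinned to 3000 UMIs for shares. No further doublet caller was run. The sum of 1 marker list is not reported here. The named genes were the 10 members, the 3 highest of each list in the XY control, list genes past 2-fold in the KO at E11.5 with the same sign at E11.75, and the 8 nearest by pattern. The 10 genes and all lists were chosen with earlier results of these data known. TMM factors came from edgeR 4.0.16 and the remaining steps from Python 3.11.15, numpy 2.4.6, pandas 2.3.3 and scipy 1.17.1, tested on simulated data. Alternatives were scaling, totals, minimum counts, thresholds, cell subsets, runs and thinning depth. Gene positions are from GENCODE M21 on GRCm38.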

Additional observations from a re-analysis of the deposited data

Results flagged for a closer look

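For 2 of the 10 genes the KO samples lay on opposite sides of the XY control in germ cells, relative to the median gene and with both counting intervals excluding it. The same held for 1.996% of all 8967 genes tested in both comparisons, and for 20.4% of the 372 genes with at least as many UMIs as Dazl (3878) over the 3 samples. Dazl was at a log2 ratio of −0.48 in the KO at E11.5 and at 0.63 in the KO at E11.75. In germ cells without a UMI of 6 somatic genes the Dazl value at E11.5 was 0.24, from 11 KO cells. Pecam1, 1 of these 6, was at 133 CPM in all germ cells of that KO sample. Dppa5a was at 0.12 in the KO at E11.5 and at −0.45 in the KO at E11.75. Dppa3, Prdm1 and Sycp3 also lay on opposite sides, each with 1 interval that included the median gene. Both ratios of a gene use the same XY control, each KO group is 1 sample, and the difference was not tested.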

How the results depend on the processing

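No paired analysis was possible because each group had 1 sample. Of 89 counts and shares of cells recomputed under an alternative, 75 stayed within 1.5 times or within the counting interval of the reported value, and 14 moved. Counts of genes were compared by number and not by which gene was called. In the 5 XX germ cells without a UMI of 6 somatic genes the count over the XY control stayed at 1, beside 6.04% of all genes. The gene called there was Ddx4 in place of Dazl. At 1.5-fold in place of 2-fold, 2 genes were called in the KO over the XY control at E11.5 (Ddx4 and Sycp3, lower), 1 in the KO at E11.75 over the XY control (Dazl, higher) and 2 between the KO samples (Dazl and Ddx4, higher), beside 7.14%, 21.1% and 18.2% of all genes. Without taking off the median gene, 2 were called between the KO samples (Dazl and Ddx4), beside 3.74% of all genes. In germ cells without a UMI of 6 somatic genes, 1 was called in the KO at E11.75 over the XY control (Dazl), beside 11.505% of all genes. With XX germ cells under 30000 UMIs, added after seeing the data, 2 were called lower in the XX control (Dazl and Ddx4), beside 7.08% of all genes in either direction, from 20 XX cells. Germ cells with at least 3 of the genes were 87.1%, 82.6%, 91.4% and 67.9% in the XY control, KO at E11.5, KO at E11.75 and XX control when thinned to 2000 UMIs, and 98.9%, 98.0%, 100% and 97.6% when thinned to 5000. Fewer or more UMIs per cell, fewer cells and another threshold are part of these settings themselves. Of 542 log2 ratios of single genes, 480 stayed and 62 moved, and 38 changed sign. TMM factors, other totals and the 1.5-fold threshold cannot move a log2 ratio that is read relative to the median gene. Ratios under these settings are among the 480 by construction and say nothing on how firm a ratio is. TMM factors and other totals likewise cannot move the number of genes past 2-fold, so those counts are among the 75 by construction. Of 130 CPM values 47 moved, and of 120 shares of cells with a UMI of a gene 86 moved. Sums under 50 UMIs, such as those of Sycp3 between the KO samples, limit what could be compared, and 1 sample per group leaves the spread between embryos unmeasured.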

Other observations

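Stra8, the gatekeeper of meiotic entry, was counted with 8 UMIs in germ cells of the KO at E11.75, or 5.13 CPM [2.22 to 10.1]. In germ cells of the XY control, the KO at E11.5 and the XX control it had 0 UMIs, with exact 95% Poisson intervals that reach up to 0.529, 1.80 and 1.02 CPM. Other cells held 5 Stra8 UMIs in the KO at E11.75 and 0 in the other samples. Stra8 was looked at after its values were seen. Rec8, another meiosis gene, was at 2.72, 4.89, 10.3 and 3.32 CPM in germ cells of the XY control, KO at E11.5, KO at E11.75 and XX control. In the KO at E11.75 that was 16 UMIs, and other cells held 335. Sycp1 was at 14.5, 10.8, 15.4 and 6.09 CPM in the same order. Entry into meiosis was not tested.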
